A study of Mus musculus with 19 samples.

Results

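The 8 genes described here, Tnfsf11, Wnt4, Calca, Rspo1, Cxcl12, Id4, Adamts18 and Ihh, encode secreted or nuclear mediators that progesterone is known to induce in the mammary epithelium. They were taken by symbol from the gene names of the array, which holds 15 probes for them among 56605 probes, and all 8 were among the 20802 genes that passed the filter on dim probes. Expression was measured in luminal cells (LCs), sorted as CD24+CD29lo cells from the mammary glands of C57Bl/6N females, with 1 single-colour Agilent array for each of 19 mice. The C451A-ERα mice carry a point mutation of the cysteine at which estrogen receptor alpha is palmitoylated, the lipid anchor of the receptor at the plasma membrane, and the other mice were wild-type. The mutation is in the germline, so every tissue of the mouse carries it. All mice were ovariectomized, at 24 days of age by the sample labels, and 10 days later received a pellet that released estradiol (E2, 0.01 mg over 60 days) alone or with progesterone (Pg, 1.5 mg over 60 days). Treatment lasted 21 days and the mice were 8 weeks old. Thus E2 alone was given to 4 wild-type and 5 C451A-ERα mice, and E2+Pg to 5 mice of each genotype, and every mouse lacked ovaries and received E2. No group was without E2, and no group received progesterone alone.

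In the mammary gland, only part of the LCs hold the estrogen and progesterone receptors. These sensor cells answer the hormones with secreted signals that act on neighbouring receptor-negative luminal and basal cells. RANKL, the product of Tnfsf11, binds the receptor RANK and drives alveolar proliferation. Wnt4 acts on basal cells, and R-spondin 1, the product of Rspo1, amplifies Wnt signals through LGR receptors. Calca gives rise by alternative splicing to calcitonin or to the peptide CGRP, Cxcl12 encodes a chemokine for the receptor CXCR4, and Ihh encodes a hedgehog ligand. Id4 encodes an inhibitor of basic helix-loop-helix transcription factors, and Adamts18 a secreted metalloprotease of the extracellular matrix. The progesterone comparison addresses how these genes differ with the hormone, and the genotype comparison whether they differ without the membrane anchor of the receptor. Both read the bulk RNA of the sorted LCs and do not separate sensor cells from other cells.

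The probes on which the largest differences rest are given by their first 30 of 60 bases, so that the transcript each reads is plain. Positions are those in the array files, on mouse build mm9. The calcitonin probe lies at chr7:121776832-121776891 and the CGRP probe at chr7:121775204-121775263, both on the minus strand, and they read different transcripts of Calca (NM_007587 and NM_001033954). The Rspo1 probe lies at chr4:124686270-124686329 on the plus strand. The Tnfsf11 probes lie on the minus strand at chr14:78677444-78677503 (first probe) and chr14:78677959-78678018 (second probe) and read the same transcript, NM_011613. Whether a probe lies in a coding exon or an untranslated end was not determined, since no annotation of this build was used here.
Calca, calcitonin probe: ggcagtcatctggcttcctagtagagcttc
Calca, CGRP probe: tattgtgcatcgtgttgtatgtgactctgt
Rspo1: ccgtggtacacgtcacggatgacctgactt
Tnfsf11, first probe: gatacataataggctactgaaatctgtcag
Tnfsf11, second probe: gtcattgcaaagaaatgatagtgtgaaggg

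Each value below is the log2 median signal of the brightest probe of a gene unless another probe is named, normalized by quantiles over the arrays. Differences between groups are taken within the same probe. Where signals of different probes or lists stand side by side, they do not measure relative amounts of RNA. A gene was called where limma gave a Benjamini-Hochberg adjusted p under 0.05 over all genes and a fold change above 1.5. Between 26471 and 31258 probes per array were well above background, and no 2 arrays held the same values (highest correlation 0.9931). Of the 19 mice, 8 correlated more with another group than with the rest of their own, by 0.0003 to 0.0175 in mean r. Wild-type E2 mouse L72 correlated more with the C451A-ERα E2 mice (mean r = 0.984) than with the other wild-type E2 mice (0.978). C451A-ERα E2 mouse L4 correlated at 0.974 with the wild-type E2+Pg mice and at 0.966 with its own group, and C451A-ERα E2+Pg mouse L18 at 0.979 and 0.961, respectively. These 3 were closest to a group of the other genotype. So were C451A-ERα E2 mouse L51 (to wild-type E2) and wild-type E2+Pg mouse L21 (to C451A-ERα E2), by 0.0014 and 0.0007, which makes 5 mice. Wild-type E2+Pg mouse L57 and C451A-ERα E2 mouse L58 were closest to the other treatment of their own genotype. Their gaps (0.0072 and 0.0075) were near those of L72 and L4 (0.0061 and 0.0088). Wild-type E2+Pg mouse L62 was also closest to the other treatment, by 0.0003. The mutated base was not read here, so genotypes rest on the labels. A call of the 8 genes that turns on L72, L4 or L18 is therefore given with and without them. All calls were also made without these 3 and L57 and L58. Both choices were made after the data were seen. L72, L4 and L18 were picked for their likeness to the other genotype, so leaving any of them out tends to widen genotype differences. Genotype calls made only without such mice are therefore no evidence of a genotype difference. Across the 271 other genes called for progesterone in wild-type, the mean log2 shift in that direction was 0.96 or more in each C451A-ERα E2+Pg mouse and 0.54 or less in each C451A-ERα E2 mouse. Pan-luminal keratins and adhesion genes were bright in all groups (list means 15.32 to 15.58, with Krt8 at 17.50). Basal (9.39 to 9.74), fibroblast (9.71 to 9.86) and immune (7.72 to 7.90) list means were above background too. Of the C451A-ERα mice, L4 (10.05) and L18 (10.34) had the highest basal list mean of their groups.

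**Figure D1:**
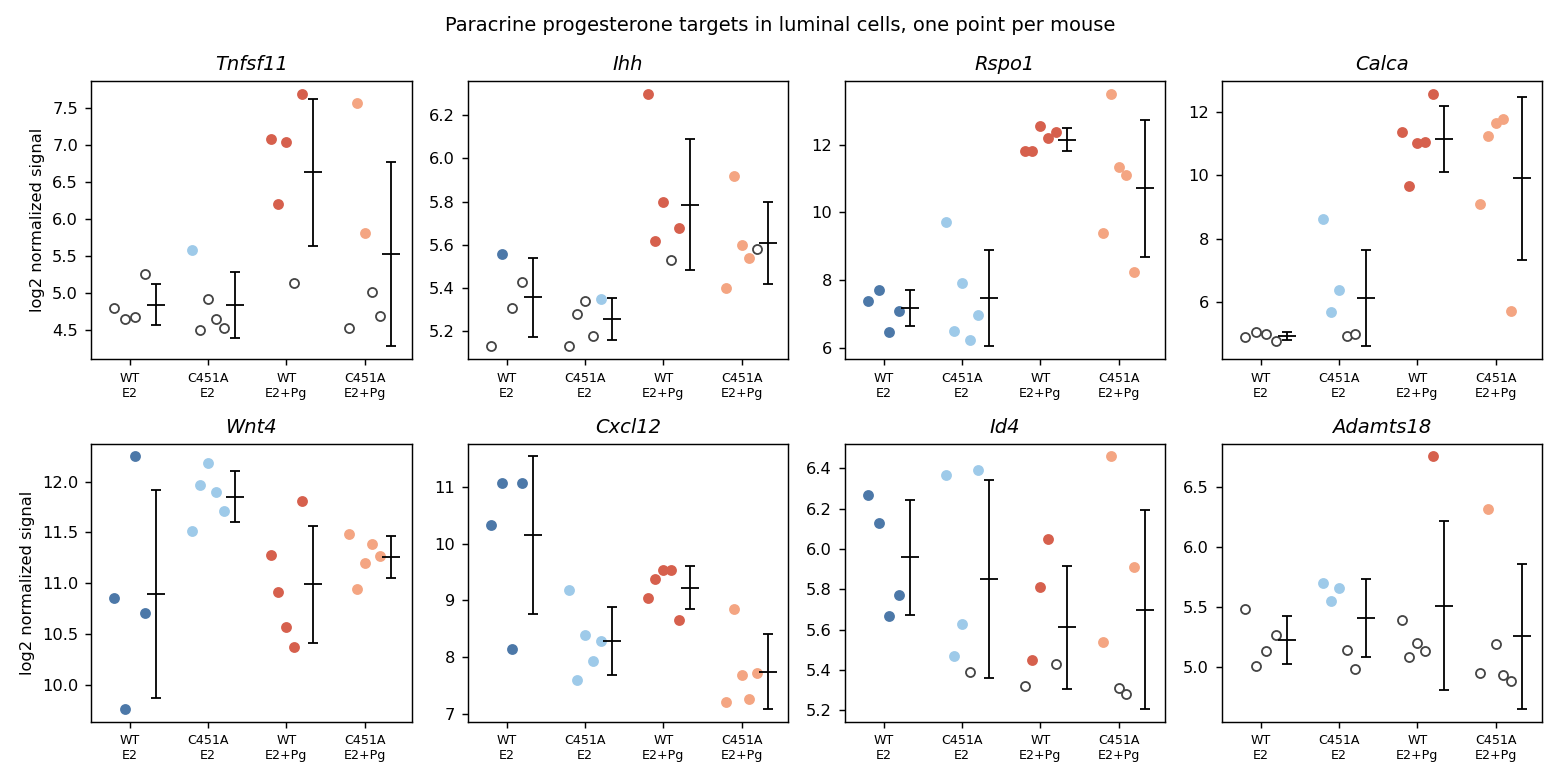
Log2 normalized signal (vertical axis, a scale per gene) of the 8 genes in each of the 19 mice by group. Filled points were well above background and open points were not, and the black bars give the mean and SD. Calca and Rspo1 sit higher in all wild-type E2+Pg mice than in any wild-type E2 mouse, while in C451A-ERα E2+Pg mice they spread from 5.72 to 11.78 and from 8.23 to 13.50.

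Of the 8 genes, Calca and Rspo1 rose with progesterone in both genotypes and no other was called in either direction. The 2 genes of 8 called higher stand beside 0.582% of all genes called higher in wild-type and 1.02% in C451A-ERα mice, and the 0 called lower beside 0.731% and 1.43%. Calca, Tnfsf11 and Adamts18 were above background on 0 of 4 wild-type E2 arrays and Ihh on 1, so these genes had little room to fall. Each of them passed the filter on dim probes only with the help of E2+Pg arrays. At an unadjusted p under 0.05, 4 of the 8 were higher in wild-type (with Tnfsf11 and Ihh) and 3 in C451A-ERα mice (with Ihh), and none was lower. Of the 20802 genes, 1970 were higher and 1406 lower at that p in wild-type, and 1777 higher and 2033 lower in C451A-ERα mice. The median log2 fold change of the 8 was 0.36 in wild-type and 0.10 in C451A-ERα mice, against 0.04 and 0.00 over all genes. The luminal hormone-sensing markers, the genes of the sensor cells, moved the other way. Their list mean was 12.31 ± 0.30 (SD, n = 4) and 12.63 ± 0.13 (n = 5) under E2 in wild-type and C451A-ERα mice, and 11.42 ± 0.18 and 11.49 ± 0.52 (n = 5 each) under E2+Pg. Of the 9 markers, 0 were called in wild-type by limma (7 fell at an unadjusted p under 0.05) and Pgr, Foxa1, Ly6a and Prom1 fell in C451A-ERα mice. Fewer sensor cells among the LCs and less RNA per cell cannot be told apart in these bulk samples, and the part of this shift in the results below was not tested.

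The calcitonin transcript of Calca changed most. In wild-type mice under E2 its probe read 4.88, 5.05, 4.99 and 4.75, and it was not well above background on any of these arrays. Under E2+Pg it read 11.38, 9.67, 11.03, 11.05 and 12.59, so the groups stood far apart. The difference was a log2 fold change of 6.23 (SE 1.0, limma adjusted p = 0.00637, exact permutation p = 0.00794, the smallest the design allows), or at least 68.6-fold. In C451A-ERα mice the probe read 8.61, 5.68, 6.36, 4.90 and 4.98 under E2, with mouse L4 highest. Under E2+Pg it read 9.11, 11.26, 11.65, 11.78 and 5.72, and mouse L63, the lowest, overlapped the E2 mice. The difference was 3.80 (SE 0.95, limma adjusted p = 0.0376, exact permutation p = 0.0317). Without mice L4 and L63 it was 5.46 (limma adjusted p = 0.000568), a choice made after these values were seen. Leaving out the highest E2 and the lowest E2+Pg mouse widens the difference by itself, so this p is no support.

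The CGRP probe of Calca did not pass the test in either genotype. It was not well above background on any E2 array of either genotype. With E2+Pg it read 5.55, 5.13, 6.28, 5.74 and 7.10 in wild-type (well above background in 4 of 5 mice) and 4.63, 6.39, 6.74, 5.59 and 4.86 in C451A-ERα mice (3 of 5). Its log2 fold change was 1.25 (SE 0.39, limma adjusted p = 0.127) in wild-type and 1.04 (SE 0.37, adjusted p = 0.142) in C451A-ERα mice, neither called. The bounds were at least 1.97-fold and at least 1.65-fold. Both C451A-ERα mice with the lowest calcitonin signal under E2+Pg, L63 and L56, also had the lowest CGRP signal of their group.

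Rspo1, like Calca, was higher with progesterone in both genotypes. The wild-type mice read 7.38, 7.72, 6.47 and 7.10 under E2 and 11.80, 11.80, 12.55, 12.18 and 12.37 under E2+Pg, with no overlap and little spread in either group. The log2 fold change was 4.97 (SE 0.80, limma adjusted p = 0.00637, exact permutation p = 0.00794), a 31.4-fold difference. The C451A-ERα mice read 9.73, 6.49, 7.91, 6.23 and 6.97 under E2 and 9.39, 13.50, 11.35, 11.09 and 8.23 under E2+Pg. Mice L56 and L63 with progesterone thus lay below mouse L4 without it. The difference was 3.25 (SE 0.76, limma adjusted p = 0.0263, exact permutation p = 0.0317), and without L4 and L63 it was 4.43 (limma adjusted p = 0.00424). These were again the highest E2 and the lowest E2+Pg mouse, so leaving them out widens the difference by itself and this p is no support. Over the 19 arrays Rspo1 and Calca correlated at r = 0.95 (Spearman rho = 0.84), a description that includes the step between treatments.

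The calls of Calca and Rspo1 in C451A-ERα mice were lost under some settings. With the slide as a block the differences stayed at 3.80 and 3.25 and the limma adjusted p became 0.0675 and 0.0511, and with the C451A-ERα groups alone it became 0.149 and 0.14. Within slides, an E2+Pg mouse exceeded the E2 mouse of its genotype on 4 of 4 slides in wild-type for both genes. In C451A-ERα mice Calca was higher on 5 of 5 slides (differences of 0.51 to 6.88) and Rspo1 on 4 of 5 (differences of -0.34 to 7.01). The exception was slide 1, which holds mice L4 and L56.

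**Figure D2:**
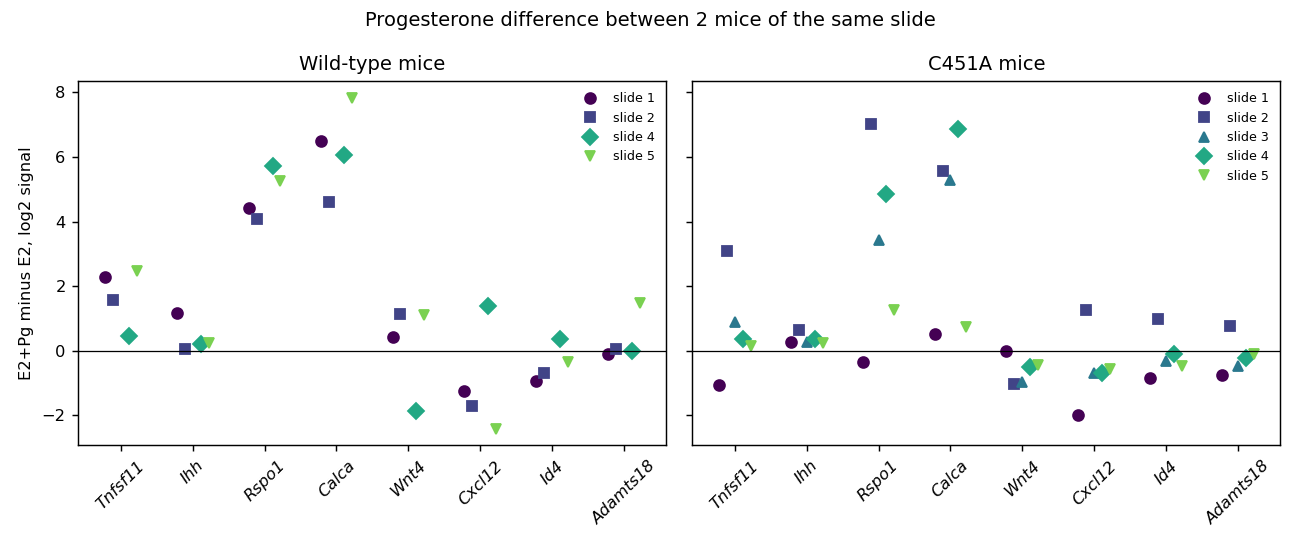
Difference in log2 signal between the E2+Pg and the E2 mouse of the same slide (vertical axis) for each of the 8 genes, with a symbol per slide, in wild-type (left, 4 slides) and C451A-ERα mice (right, 5 slides). Calca and Rspo1 lie between 4.08 and 7.84 in wild-type and spread from -0.34 to 7.01 in C451A-ERα mice.

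Between genotypes, Calca and Rspo1 did not pass the test with all mice. Under E2+Pg, C451A-ERα minus wild-type was -1.24 (95% confidence interval -3.23 to 0.75, limma adjusted p = 0.462) for Calca and -1.42 (-3.02 to 0.17, adjusted p = 0.305) for Rspo1. Under E2 it was 1.19 (-0.92 to 3.30, adjusted p = 0.647) and 0.30 (-1.39 to 1.99, adjusted p = 0.91). The difference of the progesterone effects, the interaction, was -2.43 (-5.33 to 0.47, adjusted p = 0.472) for Calca and -1.72 (-4.04 to 0.60, adjusted p = 0.475) for Rspo1. The genotype difference of Rspo1 under E2+Pg turned on which mice were fitted. It was -2.12 without L18 (limma adjusted p = 0.0585), -2.13 and called without L72, L4 and L18 (adjusted p = 0.0229), -2.22 and called without L57 and L58 as well (adjusted p = 0.0261), and -0.80 without L63 (adjusted p = 0.616). That of Calca was -1.58 without L18 (adjusted p = 0.285) and -0.19 without L63 (adjusted p = 0.919). The calls of Rspo1 here came from leaving out mice like the other genotype and are no evidence of a difference. Without L4 and L63 the interaction was -0.77 for Calca (adjusted p = 0.779) and -0.53 for Rspo1 (adjusted p = 0.838). That choice widens the C451A-ERα progesterone difference and so shrinks the interaction by itself. The intervals with all mice hold both no difference and differences of several-fold. The spread was wider in C451A-ERα than in wild-type E2+Pg mice, with an SD of 2.57 against 1.04 for Calca and 2.02 against 0.34 for Rspo1, which was not tested.

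Since Calca and Rspo1 were both called for progesterone, the 250 bases before the start of each gene are shown, as given by RefSeq on build GRCm38.p6 (Calca, chr7:114636358-114636607, minus strand, and Rspo1, chr4:124986180-124986429, plus strand). Capitals mark matches on either strand to TGACG, the core of the cAMP response element. Of the 8 genes, Calca, Cxcl12, Id4 and Ihh held a match, as did 17.8% of 32851 promoter windows of this length. The letters AGAACA, the core of the progesterone response element, were matched on neither strand in any of the 8 windows and in 16.1% of all windows. That says only that these letters are not in these windows.
Calca: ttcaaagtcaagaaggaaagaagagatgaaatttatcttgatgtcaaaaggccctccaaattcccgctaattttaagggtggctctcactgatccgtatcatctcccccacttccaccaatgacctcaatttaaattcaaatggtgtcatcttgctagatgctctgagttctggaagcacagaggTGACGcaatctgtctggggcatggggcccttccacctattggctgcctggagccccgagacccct
Rspo1: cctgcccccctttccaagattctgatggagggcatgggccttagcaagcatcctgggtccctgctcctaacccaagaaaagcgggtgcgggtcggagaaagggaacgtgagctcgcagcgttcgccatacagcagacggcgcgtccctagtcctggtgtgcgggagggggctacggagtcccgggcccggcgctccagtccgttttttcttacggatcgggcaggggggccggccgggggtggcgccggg

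Tnfsf11 was higher with progesterone in most wild-type mice and did not pass the test. Under E2 the first probe read 4.79, 4.64, 4.68 and 5.25 in wild-type mice, not well above background on any array, and 5.58, 4.50, 4.92, 4.64 and 4.53 in C451A-ERα mice, above background only in L4. Under E2+Pg it read 7.08, 6.21, 7.04, 5.13 and 7.70 in wild-type mice (4 of 5 above background) and 4.53, 7.57, 5.81, 5.01 and 4.69 in C451A-ERα mice (2 of 5). Thus 4 of 5 wild-type E2+Pg mice lay above every wild-type E2 mouse, and mouse L47 did not. The wild-type difference was 1.80 (SE 0.53, limma adjusted p = 0.0991, exact permutation p = 0.0238), or at least 3.05-fold. The C451A-ERα difference was 0.69 (SE 0.50, adjusted p = 0.503) and 0.37 without L72, L4 and L18 (adjusted p = 0.662).

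Under E2+Pg, C451A-ERα minus wild-type was -1.11 for Tnfsf11 (95% confidence interval -2.17 to -0.05, limma adjusted p = 0.258). This value turned on mouse L18, the only C451A-ERα mouse above 5.81. Without L18 the genotype difference was -1.62 (adjusted p = 0.0386) and the wild-type progesterone difference, unchanged at 1.80, had an adjusted p of 0.0265. The interaction was -1.11 (-2.65 to 0.44, limma adjusted p = 0.482). The second probe gave 1.11 (SE 0.43, adjusted p = 0.224) in wild-type and -0.06 (SE 0.40, adjusted p = 0.957) in C451A-ERα mice. The probes disagreed in mouse L27, an E2 mouse in which the second probe read 6.63 and the first 4.92.

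**Figure D3:**
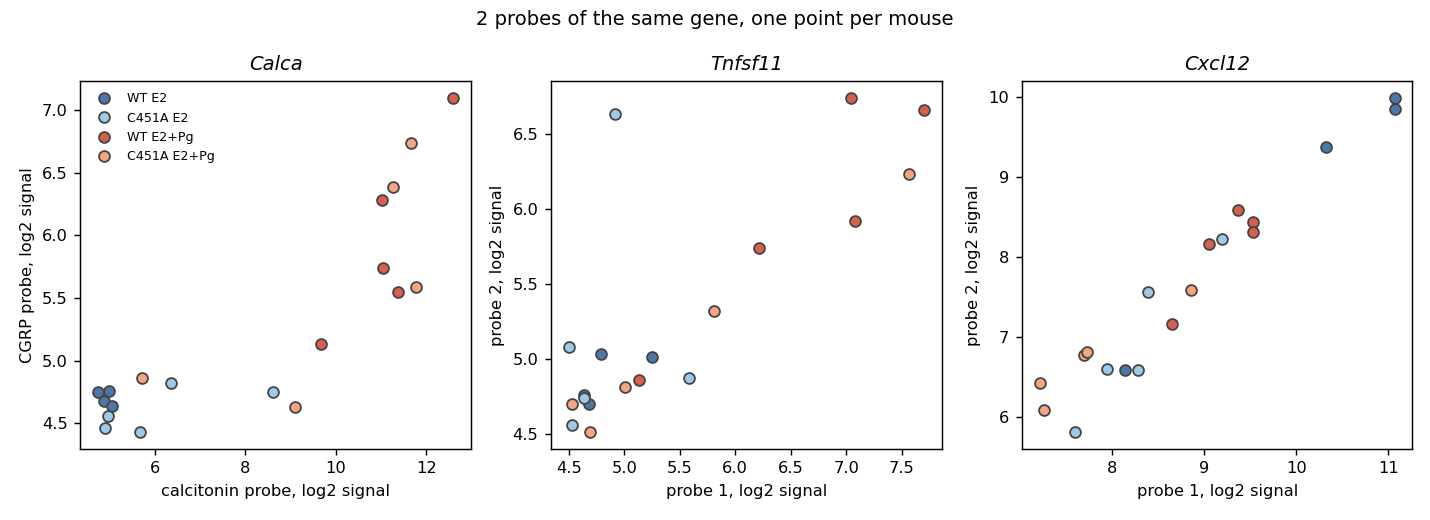
Log2 signal of the probe used (horizontal axis) against the other probe of the same gene (vertical axis) for Calca, Tnfsf11 and Cxcl12, with a point for each of the 19 mice coloured by group. The CGRP probe of Calca leaves its floor near 4.7 only in E2+Pg mice, the Tnfsf11 probes part in E2 mouse L27 (4.92 and 6.63), and the Cxcl12 probes rank the mice alike.

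Ihh, the hedgehog ligand, was a little higher with progesterone in both genotypes and was not called. The wild-type mice read 5.13, 5.56, 5.31 and 5.43 under E2 and 6.30, 5.62, 5.80, 5.53 and 5.68 under E2+Pg. The C451A-ERα mice read 5.13, 5.28, 5.34, 5.18 and 5.35 under E2 and 5.40, 5.92, 5.60, 5.54 and 5.58 under E2+Pg, without overlap. The log2 fold changes were 0.43 (SE 0.15, limma adjusted p = 0.151) and 0.35 (SE 0.14, adjusted p = 0.182), under 1.5-fold in both. The probe was well above background in 1 of 4 and 1 of 5 mice under E2 and in 4 of 5 of each genotype under E2+Pg, so these values lie near the background. A second Ihh probe was above background on 3 of 19 arrays, L50, L72 and L62, and was not tested.

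Wnt4 was bright in every mouse and was not called for progesterone. The wild-type E2 mice read 10.85, 9.76, 12.25 and 10.71, with L72 above all others, and the wild-type E2+Pg mice 11.28, 10.91, 10.57, 10.37 and 11.81. The difference was 0.10 (SE 0.36, limma adjusted p = 0.909, 95% confidence interval -0.66 to 0.85), and without L72 it was 0.55 (adjusted p = 0.347). The C451A-ERα mice read 11.51, 11.97, 12.18, 11.90 and 11.71 under E2 and 11.49, 10.94, 11.20, 11.39 and 11.27 under E2+Pg. All the E2+Pg mice thus lay below all the E2 mice (exact permutation p = 0.00794), by -0.59 (SE 0.34, limma adjusted p = 0.366).

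Between genotypes under E2, Wnt4 differed by 0.96, C451A-ERα minus wild-type (SE 0.36, limma adjusted p = 0.238, exact permutation p = 0.0873). Without mouse L72 the difference was 1.41 (limma adjusted p = 0.00858), and without L72, L4 and L18 it was 1.50 (adjusted p = 0.00653). Under E2+Pg it was 0.27 (SE 0.34, adjusted p = 0.664). The hormone-sensing list mean under E2 was 12.31 in wild-type and 12.63 in C451A-ERα mice and was highest of the wild-type E2 mice in L72 (12.74).

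Cxcl12 did not pass the test between genotypes with all mice, and it did without L72 under E2 and without L18 under E2+Pg. Both mice were picked for their likeness to the other genotype. The wild-type E2 mice read 10.32, 11.07, 8.14 and 11.07 and the C451A-ERα E2 mice 9.19, 7.59, 8.39, 7.94 and 8.28, and mouse L72 was the only wild-type mouse within the mutant range. The difference was -1.87 (SE 0.49, limma adjusted p = 0.126, exact permutation p = 0.0556), and without L72 it was -2.55 (limma adjusted p = 0.000786). Under E2+Pg the wild-type mice read 9.05, 9.37, 9.53, 9.53 and 8.65 and the C451A-ERα mice 7.21, 8.85, 7.69, 7.26 and 7.72, where L18 was the only mutant above a wild-type mouse. The difference was -1.48 (SE 0.47, limma adjusted p = 0.168, exact permutation p = 0.0159), and without L18 it was -1.75 (limma adjusted p = 0.0413). The mutant was lower on 4 of 4 slides under E2 and on 5 of 5 under E2+Pg.

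With all mice, 0 of the 8 genes were called between genotypes by limma under E2 or under E2+Pg, beside 0.0288% and 0.00481% of all genes. At an unadjusted p under 0.05, Cxcl12 was lower and Wnt4 higher under E2, and Cxcl12 and Tnfsf11 were lower under E2+Pg. Such a p was common, with 2824 of the 20802 genes under E2 and 3804 under E2+Pg. None of the 8 was called for the interaction, and 0% of all genes were. None of the 8 had an unadjusted p under 0.05 there, beside 1948 of the 20802 genes. The median log2 difference of the 8 between genotypes was 0.09 under E2 and -0.69 under E2+Pg, against 0.03 and -0.03 over all genes. The second probe of Cxcl12 gave -2.0 (SE 0.59, limma adjusted p = 0.169) under E2 and -1.40 (SE 0.56, adjusted p = 0.209) under E2+Pg. Cxcl12 is also known as a stromal gene. The fibroblast list (8 of 8 markers measured) ranged from 9.69 to 10.00 in wild-type and from 8.70 to 10.57 in C451A-ERα mice under E2, and from 9.26 to 10.36 and from 9.33 to 10.51 under E2+Pg, with 0 of 8 called between genotypes (0 at an unadjusted p under 0.05). The part of stromal RNA in the Cxcl12 values was not tested.

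**Figure D4:**
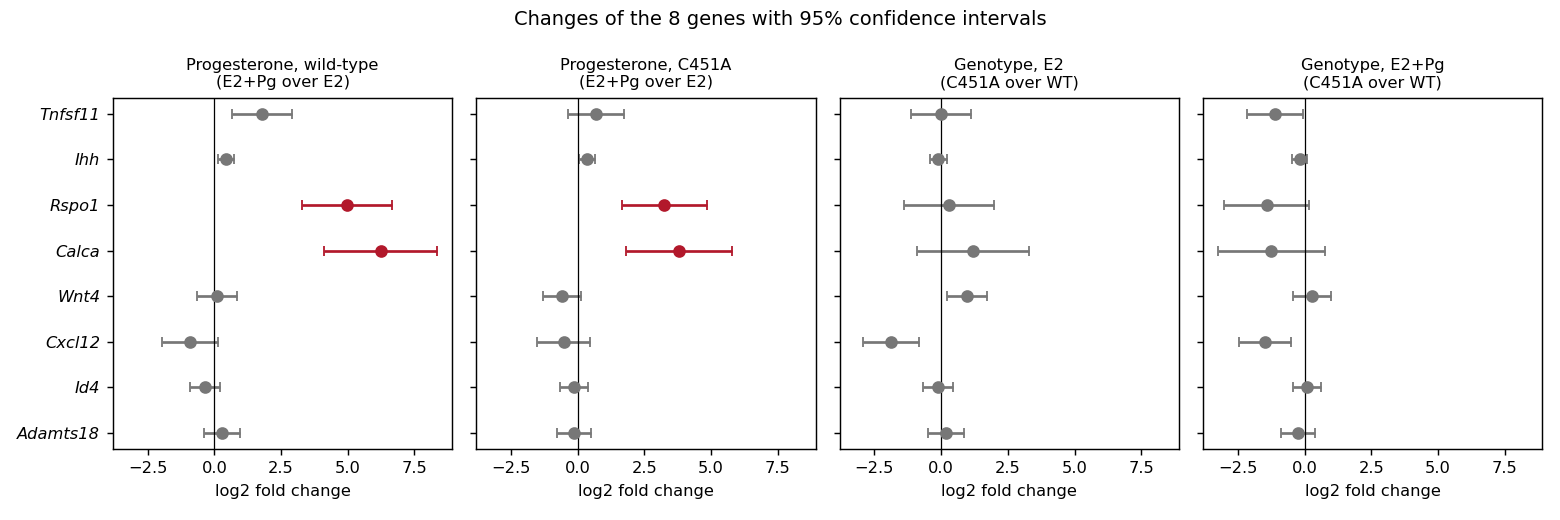
Log2 fold change (horizontal axis) of the 8 genes in the 4 comparisons, with 95% confidence intervals from limma over the 19 mice, and called genes in red. Calca and Rspo1 are called for progesterone in both genotypes, and no gene is called between genotypes, where Cxcl12 lies at -1.87 and -1.48.

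For progesterone itself Cxcl12 was -0.92 in wild-type (SE 0.49, limma adjusted p = 0.362) and -0.53 in C451A-ERα mice (SE 0.47, adjusted p = 0.595). Without L72 the wild-type value was -1.59 (adjusted p = 0.026). The sign was opposite to that of Calca, Rspo1 and Tnfsf11 in the same cells, and the wild-type value passed the test only where L72 was left out or arrays were weighted. Over the 19 arrays Cxcl12 and Wnt4 ran against each other (r = -0.72, Spearman rho = -0.67), a description in which L72 shares the low Cxcl12 and high Wnt4 of the mutant E2 mice.

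Id4 and Adamts18 passed the test in no comparison. Id4 ranged from 5.67 to 6.27 in wild-type and 5.39 to 6.39 in C451A-ERα mice under E2, and from 5.32 to 6.05 and 5.28 to 6.46 under E2+Pg, and it was well above background on 14 of 19 arrays. Its progesterone differences were -0.35 (95% confidence interval -0.91 to 0.20) and -0.15 (-0.67 to 0.37). Adamts18 was well above background on 5 of 19 arrays, and the differences of its brightest probe were 0.29 (-0.39 to 0.97) and -0.15 (-0.79 to 0.50). Its other 3 probes were above background on 2, 2 and 0 arrays and were not tested, so a change of Adamts18 was not detectable at this signal. Single mice stood out: L21 read 6.76 among wild-type and L18 6.32 among C451A-ERα E2+Pg mice, the same mice in which Tnfsf11 was highest (7.70 and 7.57).

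The receptors for these signals were measured in the same cells. RANK (Tnfrsf11a) was well above background in all mice, with group means of 8.21 to 8.50 and a progesterone difference of 0.21 (limma adjusted p = 0.689) in wild-type and 0.16 (adjusted p = 0.777) in C451A-ERα mice. The decoy receptor osteoprotegerin (Tnfrsf11b), which binds RANKL and keeps it from RANK, differed between C451A-ERα and wild-type mice by -1.39 (SE 0.45, adjusted p = 0.177) under E2 and by -1.24 (SE 0.42, adjusted p = 0.185) under E2+Pg, neither called. Of the R-spondin receptors, Lgr4, Lgr5 and Lgr6 were well above background on all arrays and were not called, with progesterone differences of 0.24, -0.88 and 0.31 in wild-type and 0.41, 0.03 and 0.54 in C451A-ERα mice. Their limma adjusted p values were 0.204 or more.

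For calcitonin, its receptor Calcr was above background on 0 arrays and was not tested, so its transcript was not detected in these LCs. For CGRP, Calcrl (5.75 to 5.87 by group) and the accessory proteins Ramp1, Ramp2 and Ramp3 were measured and not called, with wild-type progesterone differences of 0.11, -0.68, 0.36 and 0.16. Calcb, the neighbouring gene for the related peptide, was singled out after its values were seen. It was 12.63, 12.47, 5.77 and 12.20 in wild-type E2 mice, with L72 the low value, and 9.34, 4.94, 5.74, 5.99 and 7.50 in C451A-ERα E2 mice. The difference was -4.07 (SE 1.34, limma adjusted p = 0.182), and without L72 it was -5.74 and called (SE 1.09, adjusted p = 0.00531). Under E2+Pg Calcb read 10.76, 10.40, 9.23, 10.54 and 5.08 in wild-type mice, with L21 the low value, and 5.17, 6.86, 5.23, 5.22 and 4.51 in C451A-ERα mice. The difference was -3.81 (SE 1.26, limma adjusted p = 0.177), and it was -4.86 without L21 (SE 1.16, adjusted p = 0.0506) and -4.17 and called without L72, L4 and L18 (SE 0.89, adjusted p = 0.0157).

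The CXCL12 receptors Cxcr4 and Ackr3, a scavenger receptor, were not called. Cxcr4 differed by 0.91 (SE 0.35, limma adjusted p = 0.203) with progesterone in wild-type and by 0.95 (SE 0.35, adjusted p = 0.232) between genotypes under E2, and Ackr3 by 0.62 (SE 0.22, adjusted p = 0.137) with progesterone in C451A-ERα mice. For hedgehog signaling, the receptor Ptch1 differed with progesterone by -0.54 (adjusted p = 0.325) and 0.22 (adjusted p = 0.701), and the transducer Smo by 0.16 (adjusted p = 0.663) and -0.36 (adjusted p = 0.265), neither called. Hhip, a hedgehog antagonist, was above background on at most 2 arrays and was not tested.

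Among all 65 pathway genes listed, 55 passed the filter, and in each genotype 1 fell and 0 rose with progesterone. The gene was Wnt5a, a non-canonical Wnt ligand. Its group means were 11.56 ± 0.08 (SD, n = 4) under E2 and 10.22 ± 0.40 (n = 5) under E2+Pg in wild-type, and 11.38 ± 0.45 and 9.81 ± 0.44 (n = 5 each) in C451A-ERα mice. The log2 fold change was -1.34 (SE 0.25, limma adjusted p = 0.014) and -1.57 (SE 0.23, adjusted p = 0.00205), and the treatments did not overlap in wild-type (11.45 to 11.62 against 9.73 to 10.61) or in C451A-ERα mice (10.59 to 11.69 against 9.23 to 10.46). Between genotypes 0 of the 55 were called by limma under E2 (10 at an unadjusted p under 0.05, 5 in each direction) and 0 under E2+Pg (4 higher and 5 lower at an unadjusted p under 0.05). Over all 20802 genes, 2824 and 3804 had such a p. The median log2 fold change of the 55 with progesterone was -0.07 in wild-type and 0.12 in C451A-ERα mice, close to the 0.04 and 0.00 of all genes. Axin2, a Wnt target, and Rspo2, Rspo3 and Rspo4 were above background on at most 1 array.

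**Figure D5:**
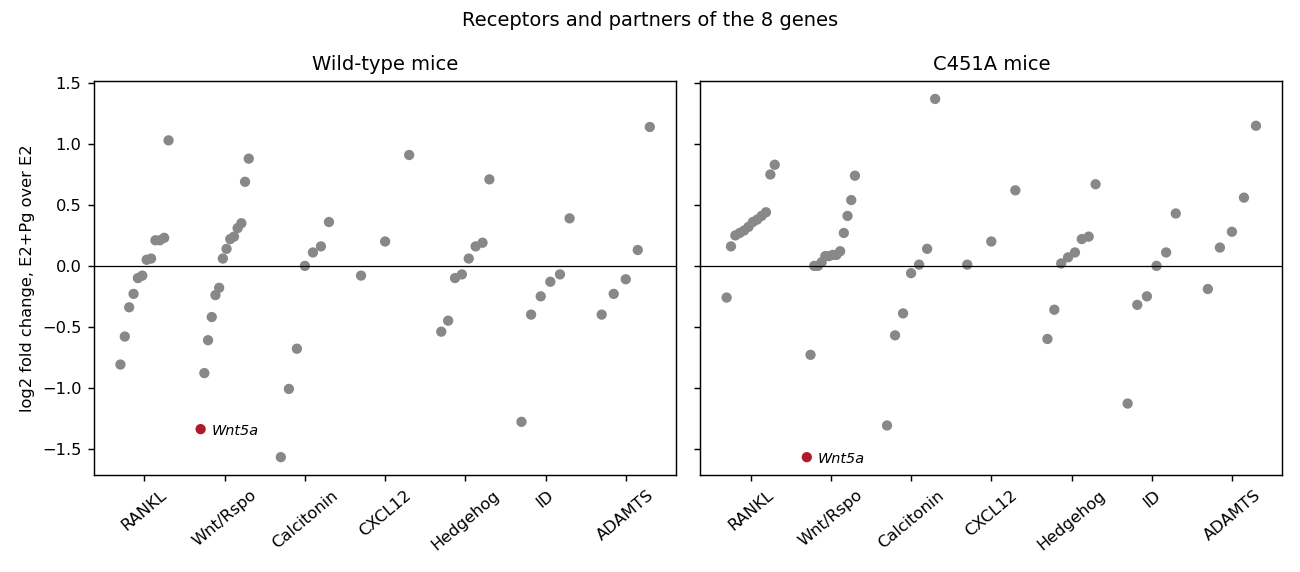
Log2 fold change of E2+Pg over E2 (vertical axis) for the 55 measured pathway genes by group (horizontal axis), in wild-type (left) and C451A-ERα mice (right), with called genes in red. Wnt5a, at -1.34 and -1.57, is the only called gene in either genotype.

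Of the hormone receptor genes, Pgr, the progesterone receptor itself, fell in C451A-ERα mice by a log2 fold change of -0.99 (SE 0.25, limma adjusted p = 0.0361) and differed by -0.72 (SE 0.26, adjusted p = 0.173) in wild-type. Esr1, the gene of the mutated receptor, differed by -1.01 (SE 0.32, adjusted p = 0.094) and -0.97 (SE 0.34, adjusted p = 0.165). Within groups, the deviation of each of the 8 genes from its group mean was set against that of Pgr over 19 mice, and 0 of 8 relations passed Benjamini-Hochberg adjustment by a permutation test (two-sided, 0 at an unadjusted p under 0.05 with all mice). By Pearson's r the highest was Rspo1 (Pearson r = 0.47, permutation p = 0.122, adjusted p = 0.44, and Spearman rho = 0.30, permutation p = 0.303, adjusted p = 0.619), and by Spearman's rho it was Cxcl12 (rho = 0.43, permutation p = 0.084, adjusted p = 0.619, and r = 0.41, permutation p = 0.0694, adjusted p = 0.44). Without the 2 mice farthest from the median in Pgr, L61 and L4, r was 0.43 for Rspo1 (permutation p = 0.0804, adjusted p = 0.215), 0.33 for Cxcl12 (permutation p = 0.189, adjusted p = 0.379) and 0.45 for Ihh (permutation p = 0.038, adjusted p = 0.215).

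Over the 19 arrays the genes most like Tnfsf11 were Hif3a (r = 0.90, Spearman rho = 0.90), Prodh (0.86, 0.71), Sirpa (0.85, 0.79), Prx (0.85, 0.83) and Acvr2b (0.85, 0.81). Those most like Wnt4 were Stard3 (r = 0.93, rho = 0.96), Zfp664 (0.90, 0.92), Mfsd12 (0.87, 0.89), Ptn (0.87, 0.94) and Tecpr1 (0.87, 0.88). These are the highest of all genes tested and a description over mice that share treatment, genotype and array, and they carry no test.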

How the data were processed

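RNA of sorted LCs from 19 mice was hybridised to single-colour Agilent arrays on 5 slides, each slide with 1 mouse of each group except slide 3, which has no wild-type E2 mouse here. The deposited scanner files give, for each spot, the signal intensity that the authors read with Agilent Feature Extraction 10.10.1.1. A deposited table of log2 values, filtered, batch-corrected and quantile-normalized by the authors, served as an alternative. Groups, mouse numbers and treatments are those of the sample labels, which give no litter. Wild-type mice were littermates as the methods state.

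Control spots and 1370 spots marked as outliers were left out, spots of a probe were averaged, and log2 median signals underwent quantile normalization (limma 3.58.1, R 4.3.3). The filter kept probes flagged well above background on 4 or more arrays, and no spot was saturated. The brightest probe stood for a gene. Probe names were updated by accession through RefSeq (33895 probes matched, 1713 renamed), and no probe of the 8 genes changed its name. A model with 4 group means (15 residual and 2.99 prior degrees of freedom) was fitted to all genes, and every adjusted p of a gene is from limma. Exact permutation tests were two-sided, and 0.00794 is the smallest p that 4 against 5 or 5 against 5 mice allow. Folds given as at least a value set the bright group against, per array, the lowest signal well above background or the probe's own where higher. Such a fold allows for dim signal only and leaves out the spread between mice. Within-group relations to Pgr used 100000 permutations. The fit was tested on simulated data.

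The 8 genes, the pathway and marker lists and the tests were chosen with earlier results of these data known. The text names all 8 genes, their direct receptors and antagonists, each called pathway gene, Esr1 and Pgr, and the 5 genes most like Tnfsf11 and Wnt4. The endothelial, pericyte, adipocyte and luminal progenitor lists had group means of 6.88 to 7.18, 7.21 to 7.41, 6.66 to 6.88 and 12.88 to 13.29, with no gene called between genotypes. Alternatives were other signals, normalizations, filters and probe choices, slide as a block, array weights, the compared groups alone, the authors' table and leaving out each mouse.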

Additional observations from a re-analysis of the deposited data

Results flagged for a closer look

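A single mouse lay far from the rest of its group for Adamts18 in both E2+Pg groups. The log2 signal was 6.76 in wild-type mouse L21, with the next at 5.39, and 6.32 in C451A-ERα mouse L18, with the next at 5.19. Of the 32 groups of values examined for the 8 genes, these 2 stood out, and chance would flag about 1 in 20. Each was the only mouse of its group in which the probe was well above background. The other Adamts18 probes were not well above background in either mouse.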

How the results depend on the processing

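Across 1272 refits of the 40 member results, 1228 gave the same call, 18 lost a call, 26 gained one and no called value turned its sign. Most of these results were not called to begin with, so most refits left an uncalled result uncalled. The lost calls were those of Calca (12 of 32 alternatives) and Rspo1 (6 of 33) for progesterone in C451A-ERα mice. In wild-type, Calca and Rspo1 were called for progesterone under every alternative in which they were tested, with limma adjusted p of 8.84e-05 to 0.0364 and 5.86e-05 to 0.0364, and their log2 fold changes ran from 3.74 to 8.78 and from 4.69 to 5.32. The number of the 8 genes called for progesterone in wild-type was 1 with only probes above background on all arrays (3 genes tested, without Calca), and 4 with array weights or without L72, L4 and L18 (with Tnfsf11 and Cxcl12). In C451A-ERα mice it was 1 with no filter on dim probes, 1 with only probes above background on all arrays, 1 without L72, L4, L18, L57 and L58 (Calca 4.15, limma adjusted p = 0.067), 0 with the slide as a block and 0 with only the groups compared. With array weights 2 genes were called between genotypes under E2 and 3 under E2+Pg, and without L72, L4 and L18 likewise 2 and 3 (7 genes tested), as without these and L57 and L58 (2 and 3), choices made after the data were seen. Leaving out each mouse gave 2 to 3 genes for progesterone in wild-type, 0 to 2 in C451A-ERα mice, 0 to 2 between genotypes under E2, 0 to 2 under E2+Pg and 0 to 0 for the interaction. Calca lost its call in C451A-ERα mice without any of 8 mice (L67, L58, L27, L76, L51, L18, L61 and L53, limma adjusted p = 0.0501 to 0.124), and Rspo1 without any of 4 (L27, L76, L51 and L61, 0.0591 to 0.0833). The causes were not tested. Over all genes, those called between genotypes under E2 numbered 6 with all mice, 132 with the authors' table, 1044 without L72 and 2265 with array weights. Under E2+Pg they numbered 1 with all mice, 8 with the authors' table, 1100 without L18 and 2302 with array weights. Without L72, L4 and L18 they numbered 1474 under E2 and 1943 under E2+Pg, of 20427 genes. Without L57 and L58 as well they numbered 1174 and 3114, of 20173 genes. For progesterone the genes called numbered 273 in wild-type (76 with the slide as a block, 29 without L52, 577 without L72). They numbered 869 in wild-type without L72, L4 and L18 and 1643 with array weights. In C451A-ERα mice they numbered 510 (138 with only the groups compared, 199 without L61, 976 without L18). Wnt5a lost its call in wild-type without L52, and array weights raised the pathway genes called from 1 to 7 in wild-type and 4 in C451A-ERα mice, and from 0 to 10 and 8 between genotypes. All 8 relations to Pgr stayed short of the threshold under both alternatives. Low signal limits Tnfsf11, Ihh, Adamts18 and the CGRP probe. The labels number no replicates across groups, so mice were not paired by number, and the slide, which holds 1 mouse of each group except on slide 3, served as the block.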
